A study of Mus musculus with 8 samples.

Results

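RAB proteins are small GTPases that act as switches on membranes: loaded with GTP they recruit effectors that move, tether or fuse vesicles, and after hydrolysis they are drawn back into the cytosol by GDI. Each organelle of the secretory and endocytic routes carries its own RABs. In the pancreatic beta cell, RAB3A, RAB27A and RAB37 are known for the docking of insulin granules, while the rest of the family serves the endoplasmic reticulum, Golgi, endosomes, lysosomes and cilium that make, sort and recycle granule cargo. The genes described here are the protein-coding mouse genes whose symbol is Rab followed by digits and at most a letter and a digit, without Rab3a, Rab27a and Rab37. There were 56 of them among 21887 protein-coding genes.

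ChIP-seq, which sequences the DNA bound by an immunoprecipitated protein, had been done in Beta-TC6, a mouse insulinoma line that serves as a beta-cell model and, as a tumour line driven by SV40 T antigen, divides unlike most beta cells. All libraries came from cells of the same line taken at confluence, with no genetic change or treatment named. The 6 targets were BMAL1 and CLOCK, clock activators that bind DNA as partners; PDX1, a homeodomain factor of beta cells; H3K4me2, a mark of promoters and enhancers; H3K27ac, the mark of active ones; and H2A.Z, a variant of histone H2A. There was a single library per target, beside 2 inputs, so that no value has a replicate and no difference was tested. A gene was counted for a target when the centre of a deposited peak lay inside the span of the gene or within 20 kb of it, which is called the window.

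Depth ran from 12892080 tags for BMAL1 to 26678241 for H3K4me2, and the lists from 1378 CLOCK peaks to 41140 H3K4me2 intervals. By the authors' estimate peaks held 0.48% of BMAL1 and 0.16% of CLOCK tags, against 37.2% of H3K27ac tags. The line matched its label: all 12 beta-cell marker genes checked, from Ins1 to Pcsk1, had PDX1 and H3K27ac in the window, and the median of their strongest H3K27ac interval was 2058 tags, scaled here and below to a library of 10000000. Of 23 markers of other pancreatic, endothelial, immune and stromal cells 9 had H3K27ac, 11 PDX1 and 14 H3K4me2 in the window. The shares of all genes were 63.1%, 41.2% and 74.8%. The alpha-cell gene Gcg and the endothelial gene Pecam1 had 4 H3K27ac intervals each, and the macrophage gene Cd68 had 3. The acinar genes Prss1, Amy2a5, Cela1 and Ptf1a had no peak in any list, and the acinar gene Cpa1 had 1 PDX1 peak and 1 H3K27ac interval. An absent peak means that none passed the threshold of 13 tags for the factors or the threshold for the marks.

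Because BMAL1 and CLOCK bind the E-box CACGTG together, the promoters of the RAB genes were read for it first. The promoter window ran from 250 bases before to 50 bases after an annotated start, and 46 of the 56 genes had such a window in the RefSeq table of GRCm38.p6. No BMAL1 or CLOCK peak touched any of these promoters, against 1.18% of all genes for BMAL1 and 1.64% for CLOCK. An E-box was present in 5 of the 46 genes (10.9%), Rab5a, Rab20, Rab21, Rab23 and Rab24, and in 8.91% of all 17492 genes with a window. In Rab5a, Rab21 and Rab24 (6.52%) an E-box was preceded by GT and followed by AC, a form found in 0.469% of all genes. Both motifs are palindromes, so both strands are read at once, and every match of the longer one is a match of the shorter. The longer form is known as a site of the lysosomal regulator TFEB and its relatives. The E-box promoters, all but that of Rab20, are shown 5′ to 3′ on the strand of the gene. The E-box and, where present, its GT and AC are in capitals. The promoters were printed because they carry the clock motif without a clock peak. A further reason was that the windows of Rab23 and Rab24 held a BMAL1 or a CLOCK peak elsewhere.
Rab24: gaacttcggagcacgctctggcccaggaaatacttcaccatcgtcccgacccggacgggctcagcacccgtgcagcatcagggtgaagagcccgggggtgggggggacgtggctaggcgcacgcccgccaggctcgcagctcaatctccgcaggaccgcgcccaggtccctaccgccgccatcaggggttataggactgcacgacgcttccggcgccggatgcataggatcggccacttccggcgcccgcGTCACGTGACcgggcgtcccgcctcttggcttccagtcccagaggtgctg
Rab21: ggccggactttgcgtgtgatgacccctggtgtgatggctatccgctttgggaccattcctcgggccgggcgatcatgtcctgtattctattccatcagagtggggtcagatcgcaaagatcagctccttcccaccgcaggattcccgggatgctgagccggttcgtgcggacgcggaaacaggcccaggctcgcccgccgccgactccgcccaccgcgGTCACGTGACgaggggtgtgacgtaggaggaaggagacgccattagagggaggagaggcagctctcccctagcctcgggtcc
Rab5a: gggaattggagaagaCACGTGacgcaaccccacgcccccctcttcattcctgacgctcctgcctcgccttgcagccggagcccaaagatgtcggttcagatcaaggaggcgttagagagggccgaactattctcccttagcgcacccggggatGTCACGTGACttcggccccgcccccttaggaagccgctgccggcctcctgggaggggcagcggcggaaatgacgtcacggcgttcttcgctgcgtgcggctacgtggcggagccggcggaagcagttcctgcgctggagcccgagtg
Rab23: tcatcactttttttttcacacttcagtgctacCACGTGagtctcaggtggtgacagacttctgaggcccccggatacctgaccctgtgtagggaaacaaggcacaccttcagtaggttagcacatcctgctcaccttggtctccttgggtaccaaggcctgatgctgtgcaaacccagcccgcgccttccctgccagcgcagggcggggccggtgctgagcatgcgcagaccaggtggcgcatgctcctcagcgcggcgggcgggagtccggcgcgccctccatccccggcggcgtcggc

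The Rab24 promoter (chr13:55321931-55322230, minus strand) has its E-box 2 bases after the start, counted to the first base of the E-box. The Rab21 promoter (chr10:115315542-115315841, minus strand) has it 30 bases before the start. Rab5a (chr17:53478984-53479283, plus strand) has an E-box 235 bases and another 95 bases before the start, only the latter in the longer form, and Rab23 (chr1:33719646-33719945, plus strand) has it 218 bases before the start. H3K4me2 and H3K27ac intervals covered part of each of these 4 promoters, and H2A.Z covered none of them. In Rab20, whose E-box lies 46 bases before the start, H2A.Z covered the promoter and H3K4me2 and H3K27ac did not. These promoters were chosen after their values were seen, and a motif match describes the letters only.

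**Figure D1:**
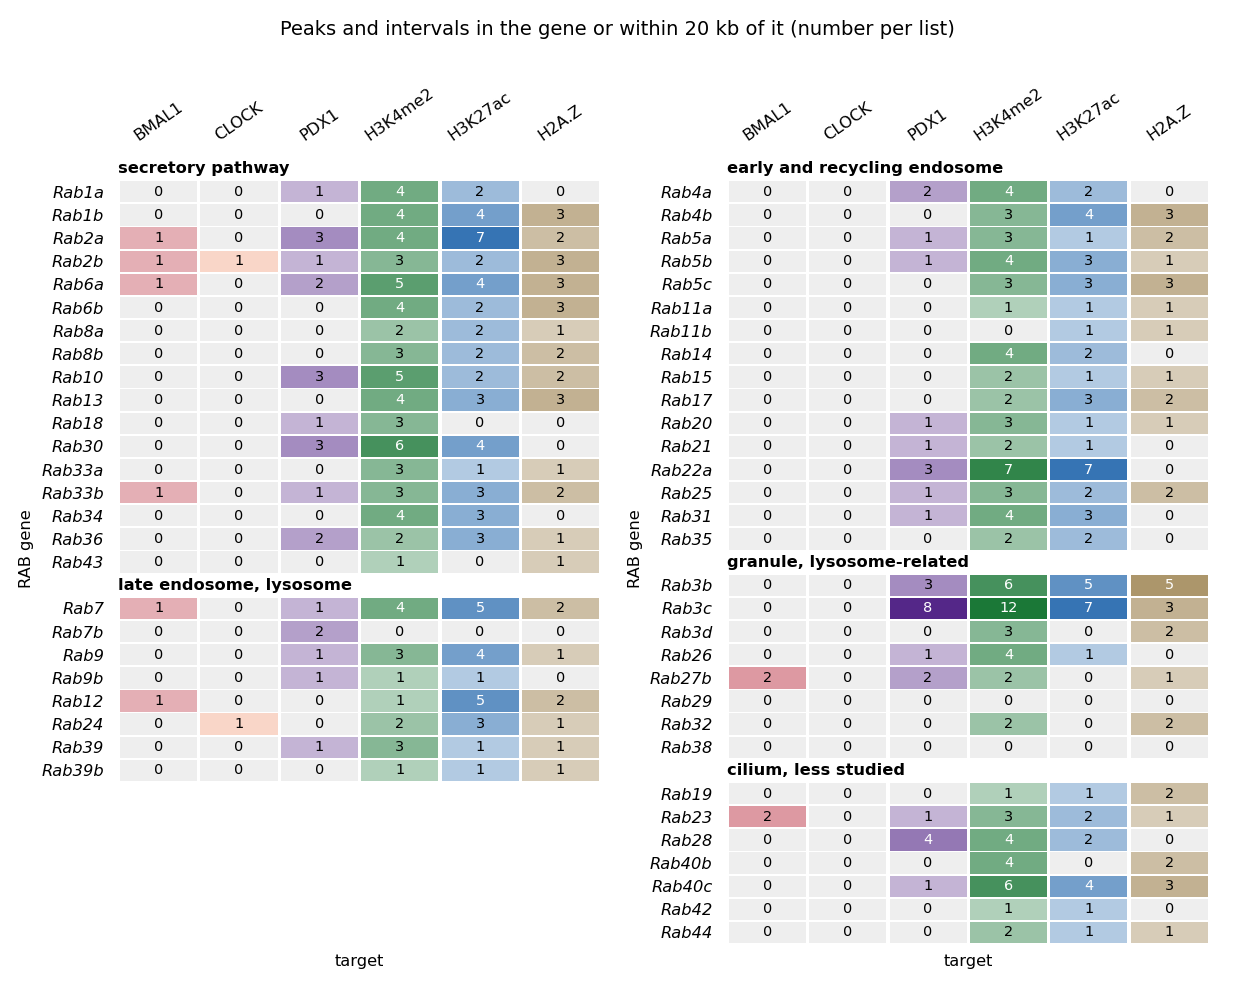
Number of deposited peaks or intervals of each target (columns) in the gene or within 20 kb of it, for the 56 RAB genes (rows) by role; darker cells hold more. The BMAL1 column is filled for 8 genes and the CLOCK column for 2, and the 3 mark columns are filled for most genes except Rab7b, Rab29 and Rab38.

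H3K4me2 and H3K27ac were found at more RAB genes than at protein-coding genes at large, and BMAL1 at about the same share. H3K4me2 lay in the window of 52 of 56 RAB genes (92.9%, Wilson 95% interval 83.0 to 97.2, against 74.8% of all genes). H3K27ac was found at 47 (83.9%, 72.2 to 91.3, against 63.1%) and H2A.Z at 39 (69.6%, 56.7 to 80.1, against 60.5%). PDX1 peaks lay at 29 genes (51.8%, 39.0 to 64.3, against 41.2%), BMAL1 peaks at 8 (14.3%, 7.42 to 25.7, against 14.0%) and CLOCK peaks at 2 (3.57%, 0.985 to 12.1, against 8.23%). In this window the intervals for BMAL1, CLOCK, PDX1 and H2A.Z include the share of all genes, and those for H3K4me2 and H3K27ac do not.

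Window length and neighbours bear on these shares. RAB genes had a median span of 22.9 kb against 17.2 kb for all genes, and a median of 2 other protein-coding genes touched their windows, against 1. All genes were put in 3 span classes of about equal size. Among the 8 RAB genes of the shortest class, up to 8.739 kb, 7 had H3K27ac (87.5% against 44.3% of all genes of that class). Among the 31 of middle span 26 had it (83.9% against 67.5%), and among the 17 of at least 31.241 kb 14 (82.4% against 77.4%). For PDX1 the shares in the 3 classes were 25.0%, 48.4% and 70.6%, against 23.2%, 34.1% and 66.5%, and for H2A.Z in the longest class 70.6% against 75.2%. When only genes with H3K4me2 in the window were compared, H3K27ac stood at 46 of 52 RAB genes (88.5% against 82.1%), H2A.Z at 38 (73.1% against 77.4%), PDX1 at 28 (53.8% against 49.3%) and CLOCK at 2 (3.85% against 10.9%). The surplus of H3K27ac was thus smaller on that base, and that of H2A.Z changed sign.

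**Figure D2:**
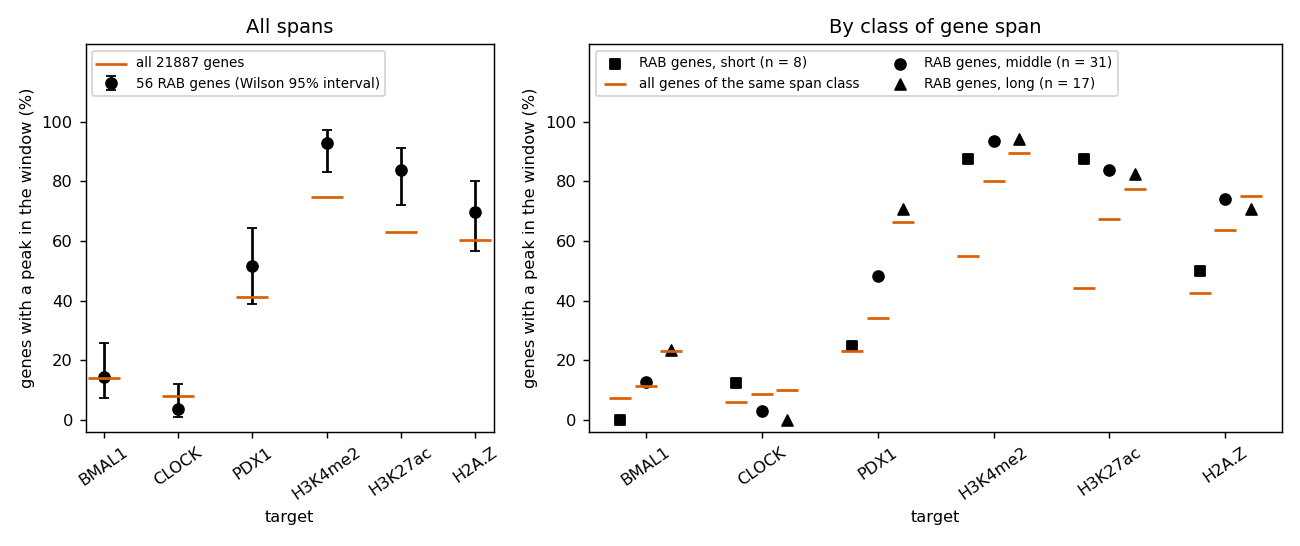
Left, share of genes with a peak in the window for the 56 RAB genes (points, Wilson 95% interval) and all 21887 protein-coding genes (lines), by target; right, the same in 3 classes of gene span. RAB points lie above the lines for H3K4me2 and H3K27ac in all 3 span classes, and the BMAL1 point over all spans lies on its line.

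Many intervals in a window lay off the RAB gene, and which gene they serve was not tested. Of 125 H3K27ac intervals counted in RAB windows, 69 touched the RAB gene itself and 85 had it as their nearest gene. The RAB gene was nearest to 111 of 172 H3K4me2 and 46 of 74 H2A.Z intervals. For the 10 RAB genes with the widest single H3K27ac interval, from 2836 to 4787 bp, that interval touched the gene at 2 (Rab12 and Rab1a) and lay off the gene at 8: Rab24, Rab36, Rab23, Rab34, Rab26, Rab7, Rab31 and Rab22a. The widest, at chr13:55327107-55331894 in the window of Rab24, was nearest to Mxd3, and the strongest, 750.6 tags in the window of Rab34, was nearest to Tlcd1. The widest H3K4me2 intervals, 5466 bp in the window of Rab23, 4956 bp at Rab36, 4310 bp at Rab34 and 3961 bp at Rab25, also lay off the RAB gene, and the next, 3905 bp, covered the start of Rab12. Of the 5 widest H2A.Z intervals those at Rab39 (1891 bp), Rab3b (1310 bp) and Rab13 (1204 bp) lay on the promoter of the gene, and those at Rab5a (1595 bp) and Rab8b (1257 bp) lay nearest to Efhb and Aph1c. Counted by overlap with the gene itself, 46 RAB genes had H3K4me2 (82.1% against 62.5% of all genes), 38 had H3K27ac (67.9% against 47.7%) and 26 had H2A.Z (46.4% against 37.2%). PDX1 peaks overlapped 20 RAB genes (35.7% against 23.5%), BMAL1 peaks 7 (12.5% against 7.78%) and CLOCK peaks 0 (against 3.56%). Within 1 kb of a gene end, H3K4me2 was found at 46 RAB genes (82.1% against 55.8%), H3K27ac at 35 (62.5% against 40.0%) and H2A.Z at 29 (51.8% against 33.0%). The factors were scarce there: PDX1 at 3 RAB genes (5.36% against 3.97%), BMAL1 at 2 (3.57% against 2.29%) and CLOCK at 0 (against 2.43%). All 3 marks were present in the window of 33 RAB genes (58.9% against 49.6%).

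On the gene itself, RAB genes carried H3K27ac intervals with ordinary tag counts. Strength here means the total tags of an interval, not divided by its width. The strongest interval touching each of the 38 genes had a median of 139.2 tags, against 139.2 for the 10434 protein-coding genes with such an interval, and 19 of the 38 lay above that median. All 12 beta-cell markers had an interval on the gene, from 221.1 to 5857 tags. Their widest intervals were also wider, from 3668 to 19620 bp, against at most 4390 bp on a RAB gene. The highest RAB value, 460.2 tags, belonged to Rab5a, which drives fusion of early endosomes. It was followed by Rab2a, a regulator of traffic between endoplasmic reticulum and Golgi (367.8), Rab12, which sends receptors to lysosomes (343.3), Rab6a of the Golgi (325.4) and Rab23, a restrainer of Hedgehog signalling (279.2). The lowest were Rab6b, the neuronal form of Rab6 (12.7), Rab5c (20.1), and Rab8b and Rab31 (25.3 each).

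**Figure D3:**
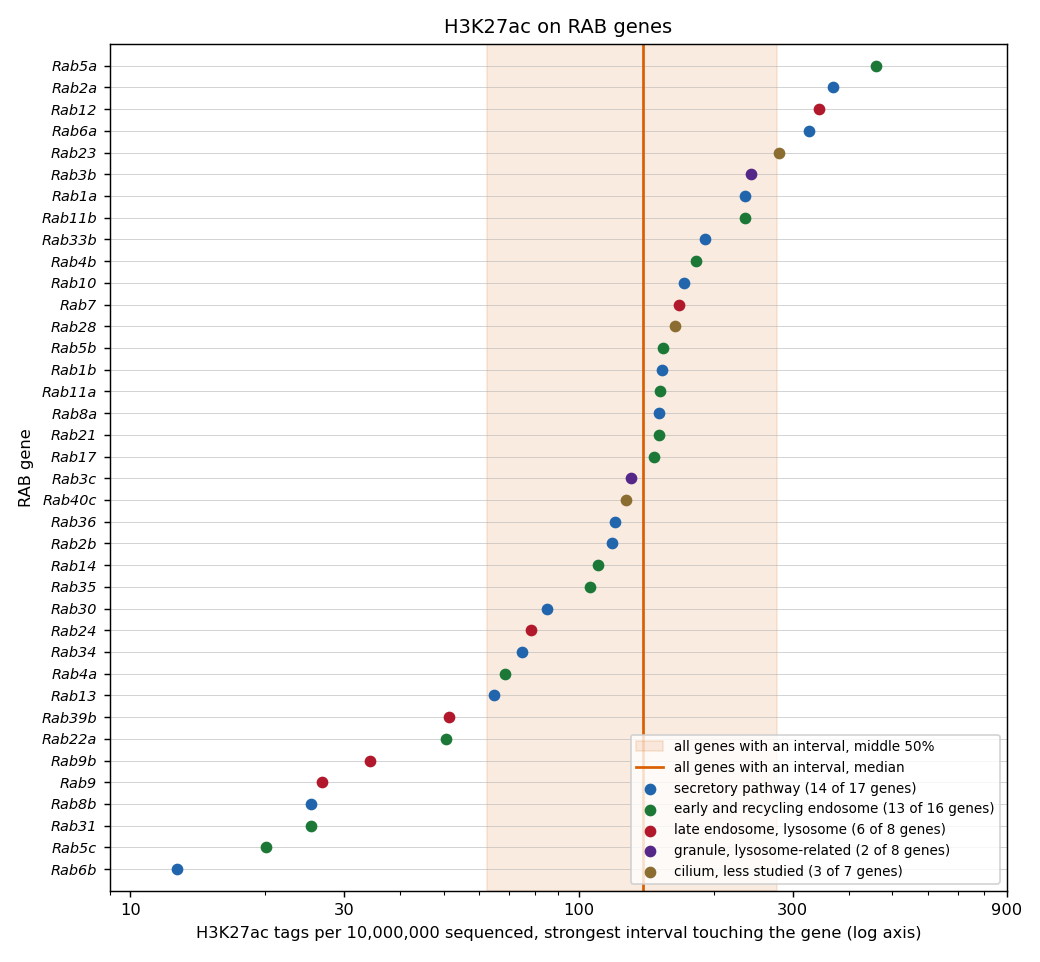
H3K27ac tags per 10000000 sequenced in the strongest deposited interval that touches the gene (log axis) for the 38 RAB genes with one, coloured by role; the line and band give the median and middle 50% of all protein-coding genes with such an interval. Rab5a is highest at 460.2 and Rab6b lowest at 12.7, and 19 of 38 points lie right of the line.

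By role, all 17 secretory-pathway RABs had H3K4me2 in the window (against 74.8% of all genes). H3K27ac was found at 15 (88.2% against 63.1%) and H2A.Z at 13 (76.5% against 60.5%). H3K27ac touched 14 of the genes with values from 12.7 to 367.8 tags and a median of 136, and it touched 47.7% of all genes. These role groups are too small to show a difference between roles. Rab1a and Rab1b, which take vesicles from the endoplasmic reticulum to the Golgi, had values of 234.5 and 153.4. H3K27ac was absent from the windows of Rab18, known for its place on lipid droplets, and Rab43 of the Golgi. The early and recycling endosome RABs had H3K27ac in the window of 16 of 16 genes (against 63.1% of all genes). It lay on 13 of the genes, with a median of 147 tags. H3K4me2 was found at 15 of them, all but Rab11b. The epithelial RAB genes Rab17 and Rab25 differed: H3K27ac touched Rab17 (147.4 tags), whereas the 2 intervals in the window of Rab25 lay off the gene.

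The late endosome, lysosome and autophagy RABs had H3K27ac in 7 of 8 windows (87.5%, against 63.1% of all genes). It lay on 6 genes, with a lower median of 64.8 tags. Rab7, the main RAB of late endosomes, had 4 H3K4me2, 5 H3K27ac and 2 H2A.Z intervals, and its relative Rab7b had none of the 3 marks. The granule and lysosome-related organelle RABs had the lowest count: 3 of 8 windows held H3K27ac (37.5%, against 63.1% of all genes). It touched only Rab3b (242 tags) and Rab3c (131 tags), relatives of the docking gene Rab3a. Groups of this size are too small to show a difference between roles. The granule docking genes Rab3a, Rab27a and Rab37, left out by the rule, all had H3K27ac in the window. Rab3d and Rab27b, other relatives of docking genes, had H3K4me2 and H2A.Z and no H3K27ac. Of Rab29, Rab32 and Rab38, which serve melanosomes and similar organelles, Rab32 had 2 H3K4me2 and 2 H2A.Z intervals, and Rab29 and Rab38 had no peak in any of the 6 lists. Rab7b, Rab29 and Rab38 were the 3 of 56 RAB genes without any mark in the window (5.36% against 21.7% of all genes). Among the 7 RABs of the cilium and less studied roles 6 windows held H3K27ac (85.7%, against 63.1% of all genes), all but Rab40b. It touched Rab23, Rab28 (163.8 tags) and Rab40c (127.3 tags).

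H3K27ac on close relatives is set side by side here, with no threshold for a difference. Rab6a had 325.4 H3K27ac tags on the gene and Rab6b 12.7. Rab8a, which brings vesicles to the plasma membrane and cilium, had 151.2 and Rab8b 25.3. In the early endosome trio Rab5a had 460.2, Rab5b 154.1 and Rab5c 20.1. Total H3K4me2 tags were higher at Rab5c (150.7) than at Rab5a (91.5). The widest H3K4me2 interval on the gene was also wider at Rab5c (3900 bp) than at Rab5a (2326 bp). Tag counts here are totals over an interval and were not divided by its width. Rab4a, of fast recycling, had 68.5 and Rab4b 182.4, and Rab11a and Rab11b had 151.9 and 234.5. Without replicates, the spread of these tag counts is unknown.

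H3K27ac overlapped the promoter window of a larger share of RAB genes than of all genes. For H3K4me2 and H2A.Z the Wilson intervals below include the share of all genes. The 46 RAB genes with a promoter window had 56 annotated starts, by coincidence the number of members. H3K27ac overlapped the promoter of 27 of the 46 genes (58.7%, Wilson 95% interval 44.3 to 71.7, against 37.6%), H3K4me2 that of 23 (50.0%, 36.1 to 63.9, against 45.3%) and H2A.Z that of 12 (26.1%, 15.6 to 40.3, against 21.7%). H3K4me2 flanked the start: it covered 41.1% of RAB starts at the start itself, 60.7% at 500 bp upstream and 71.4% at 700 bp downstream. Over all 21263 starts the values were 38.3% at the start, 39.8% at most upstream (400 bp) and 45.5% at 700 bp downstream, a shallower dip that was not compared by a test. H3K27ac covered 51.8% of RAB starts at the start and 34.5% of all starts.

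**Figure D4:**
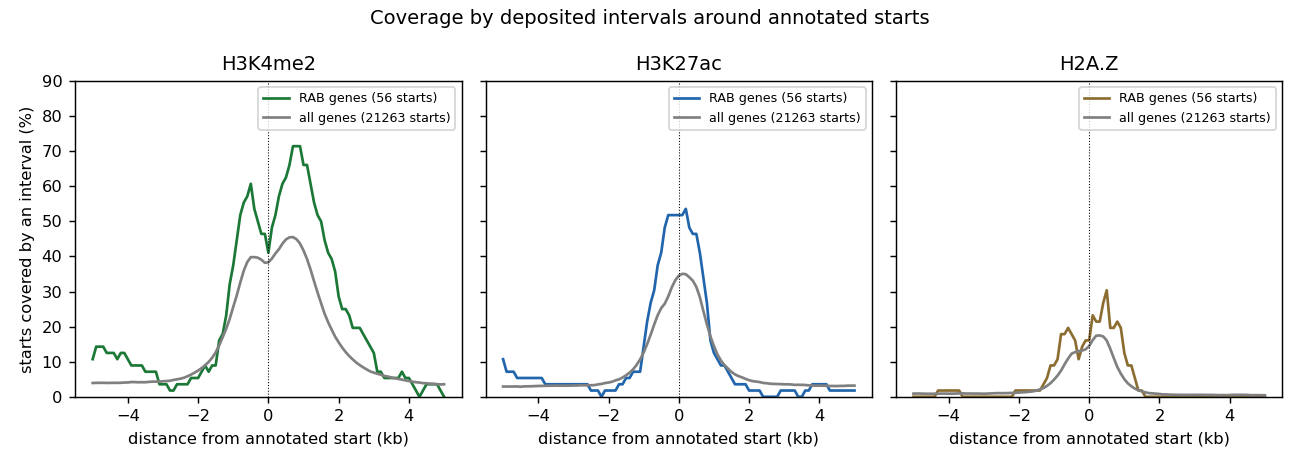
Share of annotated starts covered by a deposited interval at each distance from the start (positive, into the gene), for 56 starts of RAB genes (colour) and 21263 starts of all protein-coding genes (grey). H3K4me2 dips at RAB starts (41.1%) between maxima upstream (60.7%) and downstream (71.4%), and H3K27ac is highest near the start.

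BMAL1 peaks at RAB genes had scores near the middle of their list and lay outside marked chromatin. The 10 peaks in 8 windows had scores of 13 to 17, where the score is that of the authors' peak caller and 13 the lowest it reported. Their median was 14.5, against 14 for the whole list. In the whole BMAL1 list 387 of 4125 peaks (9.38%) scored above 17. None of the 10 overlapped CLOCK, PDX1, H3K4me2, H3K27ac or H2A.Z. Of all BMAL1 peaks in gene windows 32.5% overlapped at least 1 of the 3 marks and 8.56% overlapped CLOCK. For 0 of 10 the Wilson interval reaches 27.8%, which is below 32.5% but above 8.56%. That interval takes the peaks as independent, but Rab23 and Rab27b had 2 each, and peaks of 1 gene share their window. So 10 peaks cannot show a difference in the share on CLOCK, and a difference in the share on the marks was not tested.

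The highest BMAL1 scores, 17, lay inside Rab6a (chr7:100639207-100639537, 23.19 times the input) and off Rab23 (chr1:33761718-33762048, 7.28 times). The gene nearest to the latter was Zfp451. Rab27b, on chromosome 18, held a peak with a score of 16 at 43.66 times the input. Another had a score of 13 at 8.87 times, and both were inside the gene. Peaks with a score of 15 lay inside Rab7 (chr6:88009564-88009894) and Rab2b (chr14:52262344-52262674), each at 6.37 times the input. A second peak of Rab23, inside the gene (score 14, 8.87 times), and the peaks inside Rab12 (14, 19.1 times) and Rab2a (13, 8.19 times) followed. At Rab33b, a RAB of Golgi and autophagy, the peak (13, 30.02 times) was 12529 bp from the gene and nearest to Naa15. Thus 8 of the 10 peaks were inside the RAB gene, and the BMAL1 peak closest to an end of its gene was that of Rab2b, at 750 bp. BMAL1 was found in 4 of 17 windows of secretory-pathway RABs, 2 of 8 of late endosome RABs, 1 of 8 of granule RABs, 1 of 7 of the last group and 0 of 16 of early and recycling endosome RABs. Beside the 14.0% of all genes, groups of this size are too small to show a difference between roles.

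CLOCK was found at 2 RAB genes, in both cases off the gene. The peak in the window of Rab24, an autophagy RAB, was at chr13:55330529-55330733, 8651 bp from the gene and nearest to Mxd3. Its score was 14, at 4.26 times the input, and it lay in H3K4me2 and H3K27ac. The peak in the window of Rab2b was at chr14:52258213-52258417, 3444 bp from the gene and nearest to Chd8, with a score of 13, in H3K4me2 and H2A.Z. In the whole list 778 of 1378 CLOCK peaks (56.5%) scored above 14. Rab2b was the only RAB gene with both BMAL1 and CLOCK (1.79% against 3.69% of all genes), and its BMAL1 and CLOCK peaks did not overlap. It also had 1 PDX1 peak, 3 H3K4me2, 2 H3K27ac and 3 H2A.Z intervals. By the nearest gene end, inside the gene alone, or in the upper 50% of the list by score, no RAB gene had a CLOCK peak. The shares of all genes were then 4.59%, 3.25% and 5.38%.

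PDX1, which binds the genes of many beta-cell products, was found both inside and around RAB genes. Of 54 peaks in 29 windows 35 lay inside the RAB gene, 8 of them in the long Rab3c, and 46 were nearest to it, and none touched any of the 46 promoter windows (0.875% of all genes). Their scores ran from 13 to 55 with a median of 20.5, against 19 for the whole list. PDX1 peaks at RAB genes lay on H3K4me2 in 23 of 54 cases (42.6%, Wilson 95% interval 30.3 to 55.8), against 28.1% of all PDX1 peaks in gene windows. They lay on H3K27ac in 19 cases (35.2%, 23.8 to 48.5, against 26.1%), on both marks in 16, on H2A.Z in 1 and on none of the 3 in 28. The interval for H3K4me2 excludes the share of all gene windows and that for H3K27ac includes it. Peaks of 1 gene share their window and are not independent.

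**Figure D5:**
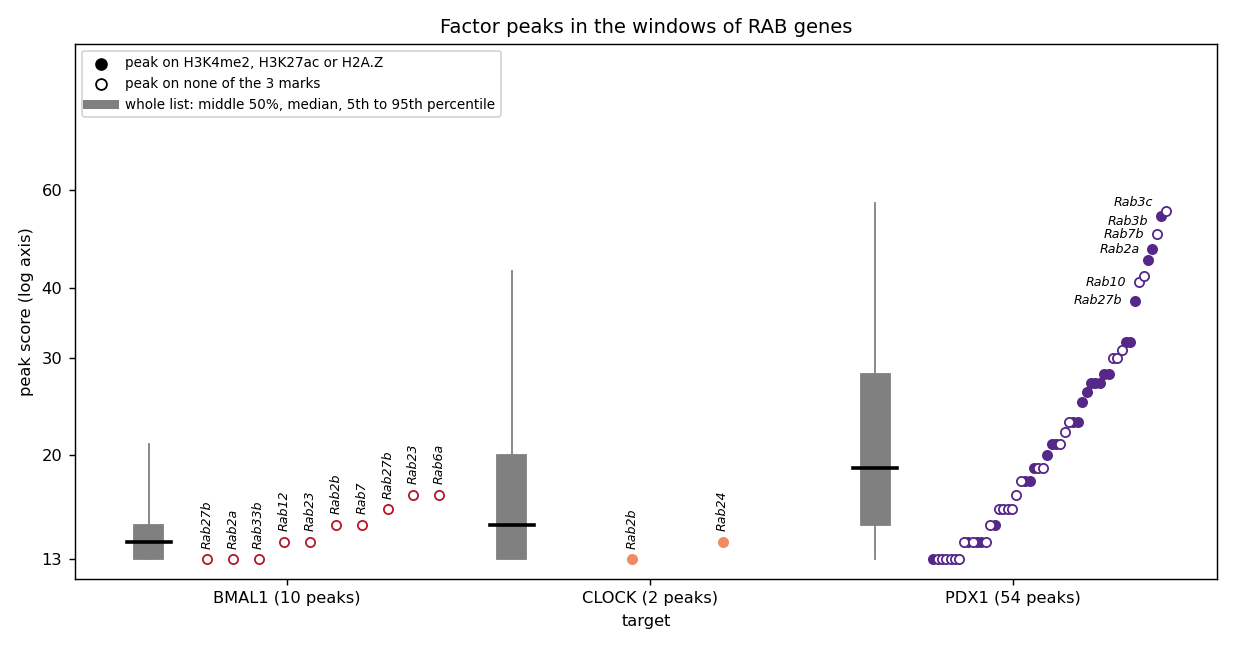
Scores of the BMAL1, CLOCK and PDX1 peaks in RAB windows (points, log axis), filled where the peak overlaps a mark, beside the distribution of each whole list (grey). All 10 BMAL1 points are open and end at 17, both CLOCK points lie below the median of their list, and PDX1 points reach 55.

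The strongest PDX1 sites were at the RAB3 relatives. Rab3c, a gene of 226.8 kb, held 8 PDX1 peaks, all inside it, with scores of 15 to 55. The best, at chr13:110109731-110109965, was on no mark, and the next, at chr13:110166764-110166998 (score 45), was on H3K4me2 and H3K27ac. Rab3b had 3 peaks, the best at chr4:108943796-108944030 (score 54), 589 bp from the end of the gene and on both marks. Rab3d had none. Rab7b, without any mark, had PDX1 peaks with scores of 50 and 31. Rab2a had scores of 47, 30 and 23, the first and the last on both marks. Rab10, known for carrying glucose transporters to the cell surface, had 41, 18 and 13, of which only the last, 1115 bp from the gene, was on H3K4me2.

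The next PDX1 scores belonged to Rab27b (38, on H3K4me2 alone), the cilium gene Rab28 (32, on H3K27ac, in a window with 4 peaks), and Rab4a and Rab22a (28 each, on both marks). At Rab22a, a recycling RAB, that peak lay 19826 bp from the gene. Rab5b, Rab23 and Rab25 followed with 27 each. The Rab23 peak lay 960 bp from the start of the gene on both marks, and the peak in the window of Rab25 was nearest to Ubqln4. In all, 26 RAB genes had both PDX1 and H3K27ac in the window (46.4% against 33.2% of all genes), and at 15 of them a PDX1 peak overlapped H3K27ac. By role PDX1 was found at 9 of 17 secretory-pathway, 8 of 16 early and recycling endosome, 5 of 8 late endosome, 4 of 8 granule and 3 of 7 other RABs, beside 41.2% of all genes.

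The 3 docking genes left out of the family had H3K27ac at a gene end. Rab3a had 1 BMAL1 peak (score 19), no CLOCK or PDX1 peak and 4 H3K27ac intervals in its window, Rab27a 2 PDX1 peaks and 3 H3K27ac intervals, and Rab37 1 CLOCK peak (score 23) and 7 H3K27ac intervals.

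Other genes of the RAB cycle were read in the same way. Of 112 such genes, 110 had H3K4me2 in the window (98.2% against 74.8% of all genes), 102 H3K27ac (91.1% against 63.1%), 96 H2A.Z (85.7% against 60.5%) and 71 PDX1 (63.4% against 41.2%). BMAL1 was found at 22 (19.6% against 14.0%) and CLOCK at 13 (11.6% against 8.23%). The 9 genes of prenylation, escort and extraction by GDI had H3K27ac in 9 cases, CLOCK in 2 and BMAL1 in 0. Of the 31 activating exchange factors that matched, 5 had BMAL1, 2 CLOCK and 21 PDX1. Of the 34 inactivating GAPs, 13 had BMAL1 (38.2%), 4 CLOCK and 21 PDX1, and of the 38 effectors 4 had BMAL1, 5 CLOCK and 24 PDX1. Most of these lists hold long genes. Median spans were 58.6 kb for the exchange factors, 68.1 kb for the GAPs and 48.6 kb for the effectors. The 9 genes of prenylation, escort and extraction had a median of 6.86 kb. In the longest span class 89.4% of all genes had H3K4me2, 77.4% H3K27ac, 75.2% H2A.Z and 66.5% PDX1. BMAL1 was found at 23.1% of that class and CLOCK at 10.1%. The part of span in these counts, among them the 13 GAPs with BMAL1, was not tested.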

How the data were processed

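ChIP-seq reads of Beta-TC6 cells had been aligned to mm10 by Bowtie 1.1.1 and passed to HOMER (version not stated), per the submitters' processing notes. Per the file headers, the authors called peaks in each library against an input. BMAL1, CLOCK and PDX1 peaks needed 13 tags, 4 times the input and 4 times the surrounding 10000 bp. Intervals of the marks needed 4 times the input. For H2A.Z the header and the sample description name different inputs, and the list was used as deposited.

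The deposited score, fold over input (a ratio) and normalized tag count (a signal, scaled to 10000000 tags) were used within each list only. The deposited p-value, region size and centre-enrichment fraction entered no count. Spans of 21887 protein-coding genes and 21263 promoter windows of 17492 genes came from RefSeq tables of GRCm38.p6, which has the coordinates of mm10. These tables hold no exons or UTRs, so peaks are placed only inside or outside a gene.

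Peak centres were assigned to every gene within 20 kb, and intervals overlapped from 1 bp. Each target had 1 library, so counts stand beside the share of all genes without a test. Wilson 95% intervals cover counting error only, and neighbouring genes share peaks. Alternatives were other flanks, the nearest gene end, the upper 50% by score, a fold of 8 and 50% coverage. Comparisons among genes with H3K4me2, at gene ends, at promoters and on the gene itself were added after the data were seen. Genes named were members with a BMAL1 or CLOCK peak, the 10 best PDX1 scores, the 10 widest H3K27ac and 5 widest H3K4me2 and H2A.Z intervals, and members with no mark. Other members named are examples chosen after their values were seen. The members, role groups and lists were chosen with earlier results of these data known. No promoter carried a BMAL1 or CLOCK peak, the rule for printing one, so promoters with an E-box were printed, all but that of Rab20. Counting was tested on simulated data, where 0 of 300 genes differed from a direct search. The software was Python 3.11.15 with NumPy 2.4.6, pandas 2.3.3, SciPy 1.17.1 and, for plots, matplotlib 3.10.9.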

Additional observations from a re-analysis of the deposited data

How the results depend on the processing

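Of 120 recomputed values, 101 kept their direction and stayed within the stated tolerance (1.5 times for a count, the Wilson interval for a difference of shares), 16 moved further and 3 changed sign. The BMAL1 difference between RAB genes and all genes went from 0.26 percentage points to -1.62 points with a 50 kb flank and to -2.69 points among genes with H3K4me2, a base added after seeing the data. On that base the H2A.Z difference went from 9.13 to -4.34 points and the H3K27ac difference from 20.9 to 6.33 points. The CLOCK count of 2 genes became 0 inside the gene, by nearest gene end and in the upper 50% by score. It became 1 with a 5 kb flank and at a fold of 8, and 4 with a 50 kb flank. The CLOCK share of all genes in these settings ran from 3.25% inside the gene to 13.1% with a 50 kb flank. The count of 1 gene with both BMAL1 and CLOCK became 0 under the same filters of no flank, nearest gene end, upper 50% by score and fold of 8. The PDX1 difference was 16.0 points with a 5 kb flank (44.6% against 28.7%) and 15.1 points with a 50 kb flank (73.2% against 58.1%). Among PDX1 peaks in the upper 50% by score 19 genes were left (33.9% against 27.1% of all genes). At a fold of 8, 21 genes had PDX1 (37.5% against 33.8%), and the difference fell from 10.6 to 3.73 points. With that filter 20 genes had H3K4me2 (35.7% against 27.5%, 8.19 points above all genes). H3K27ac was left at 31 (55.4% against 39.5%) and H2A.Z at 18 (32.1% against 26.5%). Requiring 50% of a factor peak to be covered moved no overlap count beyond the tolerance. Overlap counts of 0, as for all BMAL1 peaks, could not change under that stricter rule, yet they are among the 101. No paired analysis was possible because each target has 1 library and no result comes from a test. Genes below the calling threshold, 13 tags for the factors, cannot be told from unbound genes at these depths, and no replicate shows which weak peaks recur.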

Other observations

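Rab11b, whose product directs the recycling endosome, was the only one of the 56 RAB genes with an H3K27ac interval in its window and no H3K4me2 interval, an example chosen after its values were seen. Its H3K27ac interval held 234.5 tags (scaled to 10000000 per library) over 1374 bp and overlapped the promoter window. In the other direction 6 RAB genes, Rab3d, Rab18, Rab27b, Rab32, Rab40b and Rab43, had H3K4me2 and no H3K27ac in the window. Among all 21887 protein-coding genes, 13806 had H3K27ac in the window, and 13442 of these also had H3K4me2. Of the 16367 genes with H3K4me2, 82.1% had H3K27ac, against 88.5% of the 52 RAB genes with H3K4me2. Neither pattern is thus particular to RAB genes.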
